A study of Arabidopsis thaliana with 12 samples.

Results

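Messenger RNA of 9 genes that carry seed oil towards sugar was followed in Arabidopsis thaliana seeds: the oil lipase genes SDP1 (AT5G04040) and SDP1L (AT3G57140), the glyoxylate cycle genes ICL (AT3G21720) and MLS (AT5G03860), the peroxisomal citrate synthase genes CSY2 (AT3G58750) and CSY3 (AT2G42790), the peroxisomal malate dehydrogenase genes PMDH1 (AT2G22780) and PMDH2 (AT5G09660), and PCK1 (AT4G37870), which encodes phosphoenolpyruvate carboxykinase. They were chosen by name for their place in the pathway, with earlier results of these data known, and are 9 of the 36795 loci in the tables. All 9 passed the filter on low counts that left 18413 genes to be tested.

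The seeds belonged to 4 groups of 3 biological replicates: odr1-2 mutant seeds in 300 mM mannitol, odr1-2 seeds in water, Col-0 wild-type seeds in 300 mM mannitol, and Col-0 seeds in water. All were after-ripened seeds that had spent 2 days at 4°C and then 12 h in the medium, so the cold treatment is common to every group. Mannitol is a solute that lowers the water potential of the medium, and it served as an osmotic stress with water as its control. The labels give odr1-2 as the mutant without the nature of the allele, and the ODR1 transcript was not analysed here.

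The libraries held 10060020 to 13693166 gene counts each, and replicates differed by more than counting error in every group, with a chi-square per degree of freedom of 2.01 to 5.75, the highest between Col-0 mannitol replicates 1 and 2. Levels are given as counts per 1000000 scaled by TMM (CPM), which serve to compare libraries, or as the authors' TPM (transcript abundance scaled to transcript length and to the total of the library), which serve to compare genes. Changes are log2 fold changes ± the standard error of the fit, from the edgeR quasi-likelihood test with Benjamini-Hochberg adjustment over the 18413 genes. "Rose", "fell" and "differed" are used only where the adjusted p was under 0.05. Whole seeds were sequenced, and fewer cells of a type cannot be told apart from less RNA per cell.

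Arabidopsis seeds store their carbon reserve mainly as triacylglycerol in oil bodies. After germination, lipases release fatty acids from it, peroxisomes break these down to acetyl-CoA by beta-oxidation, and the glyoxylate cycle joins acetyl units into organic acids without losing them as carbon dioxide. Oxaloacetate made from those acids is turned into phosphoenolpyruvate in the cytosol and from there, by gluconeogenesis, into the sucrose that feeds the seedling before it can photosynthesise.

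The 9 genes covered a wide range of levels. ICL was the most abundant, with 9731 ± 65.5 TPM in odr1-2 in mannitol, 7921 ± 65.5 TPM in odr1-2 in water, 7923 ± 142 TPM in Col-0 in mannitol and 6113 ± 81.7 TPM in Col-0 in water (SD, n = 3 each). This made it the transcript of rank 2 in Col-0 in water and of rank 3 in the other 3 groups, counted over all loci. MLS ranged over the 12 libraries between 2987 and 3670 TPM and PCK1 between 2709 and 3646 TPM. CSY3 with 544 to 666 TPM and PMDH1 with 502 to 627 TPM formed the next tier, and SDP1 followed with 56.5 to 78.5 TPM. SDP1L had 24.7 to 33.0 TPM, CSY2 15.4 to 27.1 TPM and PMDH2 6.22 to 8.86 TPM.

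Some neighbours in this order could not be separated. MLS and PCK1 overlapped in odr1-2 in water, where MLS had 3433 to 3595 TPM and PCK1 3498 to 3646 TPM. Both mannitol groups had MLS above PCK1 in every library, whereas Col-0 in water had PCK1 above MLS in every library. CSY3 and PMDH1 overlapped in Col-0 in water, with 544 to 574 TPM for CSY3 and 573 to 589 TPM for PMDH1. Added up, the 9 transcripts held 1.74% ± 0.0176 of all TPM in odr1-2 in mannitol, 1.64% ± 0.0188 in odr1-2 in water, 1.59% ± 0.0162 in Col-0 in mannitol and 1.36% ± 0.00580 in Col-0 in water (SD, n = 3 each). ICL was the largest part of each sum, so the sums do not describe every member. Mean TPM of SDP1L, CSY2, PMDH1 and PCK1 was lower in odr1-2 in mannitol than in Col-0 in water. That of PMDH2 was nearly equal, with 7.69 TPM in odr1-2 in mannitol and 7.71 TPM in Col-0 in water.

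**Figure D1:**
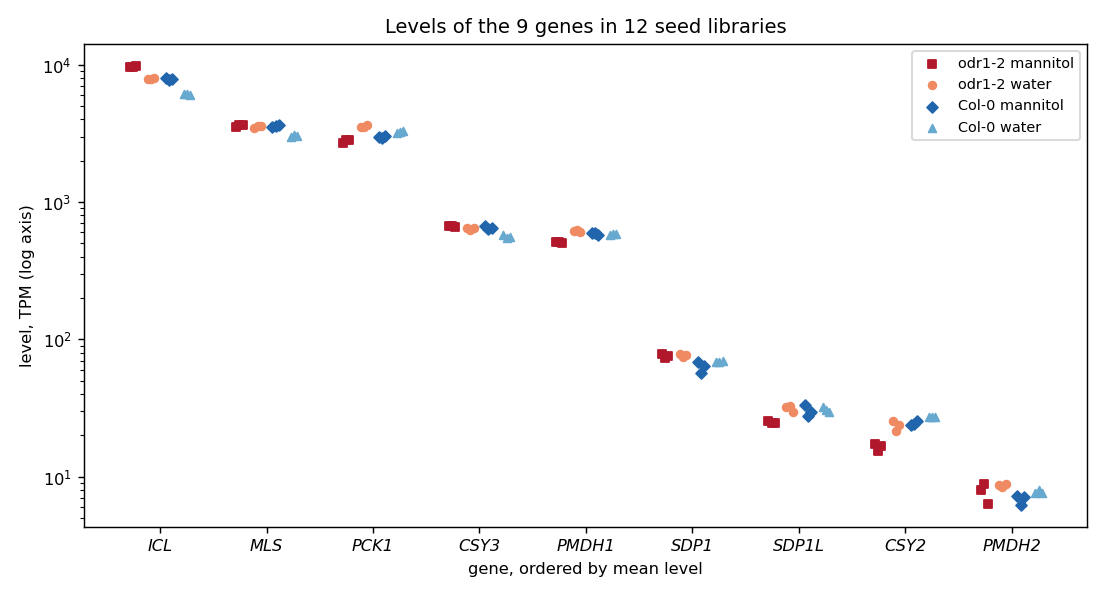
Level of each of the 9 genes in TPM on a log axis, with 1 point per library and the 4 groups side by side for each gene. The genes span from ICL, between 6019 and 9805 TPM, down to PMDH2, between 6.22 and 8.86 TPM, and the 4 groups of a gene lie close together on this scale.

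In odr1-2 seeds mannitol raised 3 of the 9 transcripts and lowered 4. ICL, MLS and CSY3 rose, SDP1L, CSY2, PMDH1 and PCK1 fell, and SDP1 and PMDH2 did not pass the test. Of all 18413 genes tested, 42.5% passed in this comparison (21.2% up and 21.3% down). The median log2 fold change was -0.06 over the 9 genes and -0.0035 over all genes tested.

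In Col-0 seeds mannitol raised ICL, MLS and CSY3 and none of the 9 fell, against 42.4% of all genes passing in this comparison (21% up and 21.4% down). The median was 0.02 over the 9 genes and 0.0031 over all genes tested. The changes were small throughout: the fold changes of the 9 genes lay between 0.705 and 1.35 in the 4 pairwise comparisons.

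Between genotypes in water, 6 of the 9 transcripts were higher in odr1-2 than in Col-0, namely SDP1, ICL, MLS, CSY3, PMDH1 and PCK1, and none was lower by the test. The background was 39% of all genes (20.4% up and 18.6% down), and the median log2 fold change was 0.17 over the 9 genes and -0.0018 over all genes tested. In mannitol, SDP1, ICL and CSY3 were higher in odr1-2, SDP1L, CSY2 and PMDH1 were lower, and MLS, PMDH2 and PCK1 did not pass. The background there was 40.1% (20.5% up and 19.6% down), with medians of 0.07 and -0.0012. The 4 comparisons share groups of libraries pairwise, so their outcomes are not independent.

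The response to mannitol differed between the genotypes for MLS, PMDH1 and PCK1. In the test of the difference itself, all of these had a lower log2 fold change in odr1-2 than in Col-0. This is 3 of 9 genes, against 3.75% of all genes tested (1.08% with a higher and 2.67% with a lower response in odr1-2). The other 6 genes did not pass this test.

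**Figure D2:**
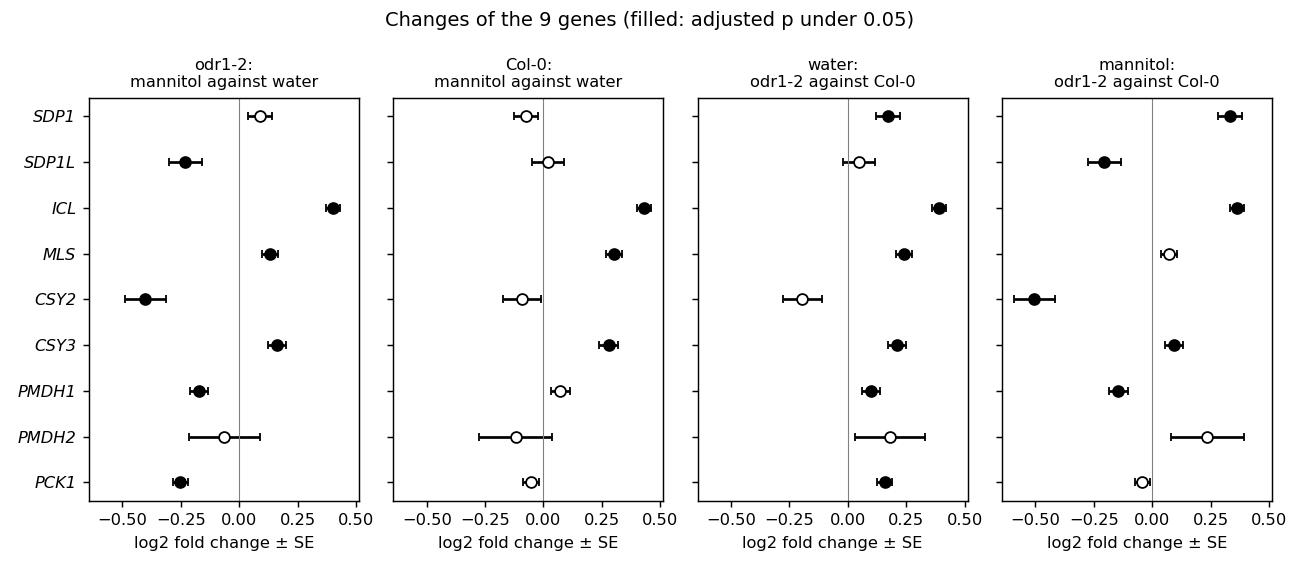
Log2 fold change of each gene in the 4 pairwise comparisons, with whiskers of 1 standard error derived from the edgeR test and filled circles for an adjusted p under 0.05. ICL lies between 0.36 and 0.43 in all 4 panels, while PMDH1 and PCK1 lie to the left of 0 under mannitol in odr1-2 and to the right of 0 between genotypes in water.

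Markers of other seed tissues also moved with genotype and medium. The 4 endosperm markers EXPA2, MAN7, RGE1 and EPR1 summed to between 9352 and 10127 TPM in odr1-2 in mannitol and between 8630 and 9586 TPM in odr1-2 in water. In Col-0 they summed to between 3047 and 4980 TPM in mannitol and between 3478 and 3853 TPM in water. The 3 of them that were tested were higher in odr1-2 in both media, and RGE1, a regulator of the young endosperm, was at or near 0 throughout. The 5 embryo and seed storage markers SESA1, CRA1, OLEO1, GEA6 and FUS3 summed to 28651 to 29466 TPM in odr1-2 in mannitol, 17454 to 17746 TPM in odr1-2 in water, 16169 to 17280 TPM in Col-0 in mannitol and 6507 to 6641 TPM in Col-0 in water. All 5 were higher in odr1-2 in both media, and 4 of them rose in mannitol in each genotype. The 3 seed coat markers BAN, GL2 and MUM4 summed to no more than 10.9 TPM in any library, with BAN at or near 0. Of the 2 that were tested, GL2 gave -0.76 ± 0.21 in odr1-2 and -0.50 ± 0.18 in Col-0 for mannitol against water, and -0.87 ± 0.21 in mannitol and -0.61 ± 0.18 in water for odr1-2 against Col-0, all called, and MUM4 passed in none of the 4. The part of these tissues in the results on the 9 genes was not tested.

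Oil hydrolysis begins with SDP1, a patatin-type triacylglycerol lipase of the oil body surface, and SDP1L, its close paralogue. SDP1 had 193, 183 and 187 CPM in odr1-2 in mannitol, 179, 172 and 179 CPM in odr1-2 in water, 157, 137 and 152 CPM in Col-0 in mannitol, and 156, 156 and 158 CPM in Col-0 in water. Every odr1-2 library was thus above every Col-0 library, whereas the mannitol and water libraries of Col-0 overlapped. SDP1 was higher in odr1-2 by 0.33 ± 0.05 in mannitol (edgeR adjusted p = 1.57e-07) and by 0.17 ± 0.05 in water (adjusted p = 0.00575). The call in water was lost in a limma fit on TPM (0.15, adjusted p = 0.0698). Mannitol gave 0.09 ± 0.05 in odr1-2 and -0.08 ± 0.05 in Col-0, and neither passed.

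SDP1L had 54.9, 53.9 and 53.8 CPM in odr1-2 in mannitol, 63.8, 66.6 and 60.4 CPM in odr1-2 in water, 66.97, 59.5 and 61.0 CPM in Col-0 in mannitol, and 64.1, 61.7 and 59.1 CPM in Col-0 in water. The odr1-2 mannitol libraries were the lowest of the 12, and the other 3 groups overlapped. In odr1-2 mannitol lowered SDP1L by 0.23 ± 0.07 on the log2 scale (edgeR adjusted p = 0.00505). In mannitol it was lower in odr1-2 than in Col-0 by the same test, with a log2 fold change of -0.20 ± 0.07 (adjusted p = 0.0152). Leaving out Col-0 mannitol replicate 1, its highest library, ended the call between genotypes (-0.16, adjusted p = 0.102). The difference in mannitol response between genotypes, -0.25 ± 0.10, did not pass (adjusted p = 0.177).

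The coding sequences of SDP1 and SDP1L were identical at 72.1% of aligned bases, with no identical stretch beyond 24 bases. How reads that map to several places were handled is not stated.

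ICL encodes isocitrate lyase, which splits isocitrate into glyoxylate and succinate and so opens the bypass that defines the glyoxylate cycle. It had 14455, 14541 and 14641 CPM in odr1-2 in mannitol, 10787, 11072 and 11165 CPM in odr1-2 in water, 11228, 11411 and 11325 CPM in Col-0 in mannitol, and 8436, 8490.4 and 8277 CPM in Col-0 in water. The 4 groups did not overlap, with odr1-2 in mannitol highest and Col-0 in water lowest. Mannitol raised ICL by 0.40 ± 0.03 in odr1-2 (edgeR adjusted p = 5.66e-19) and by 0.43 ± 0.03 in Col-0 (adjusted p = 2.02e-20). It was higher in odr1-2 than in Col-0 by 0.36 ± 0.03 in mannitol (adjusted p = 7.96e-17) and by 0.39 ± 0.03 in water (adjusted p = 2.92e-18).

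The mannitol response of ICL in odr1-2 minus that in Col-0 was -0.03 ± 0.04, with a 95% interval of -0.11 to 0.06. It did not pass (edgeR adjusted p = 0.85). At 173% of its Col-0 water mean in odr1-2 in mannitol, ICL had the widest span of the 9 genes between group means, 1.73-fold. All these calls held under every alternative tried.

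MLS encodes malate synthase, which condenses the glyoxylate made by isocitrate lyase with acetyl-CoA to malate. It had 4878, 5026 and 5086 CPM in odr1-2 in mannitol, 4371, 4631 and 4660.4 CPM in odr1-2 in water, 4547, 4912 and 4809.6 CPM in Col-0 in mannitol, and 3799, 3905 and 3872 CPM in Col-0 in water. The Col-0 water libraries were below all others, and Col-0 in mannitol overlapped with both odr1-2 groups. Mannitol raised MLS by 0.13 ± 0.03 in odr1-2 (edgeR adjusted p = 0.000915) and by 0.30 ± 0.03 in Col-0 (adjusted p = 1.47e-11). In water it was higher in odr1-2 by 0.24 ± 0.03 (adjusted p = 2.25e-08), and in mannitol its difference of 0.07 ± 0.03 did not pass (adjusted p = 0.0902). That difference passed in 4 of 16 alternatives, among them the fits without Col-0 mannitol replicate 2 (0.10, adjusted p = 0.00489) and without odr1-2 mannitol replicate 1 (0.09, adjusted p = 0.0441).

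The rise of MLS in odr1-2 was lost with total count scaling (0.06, adjusted p = 0.110) and in the limma fit on TPM (0.03, adjusted p = 0.490). Its response to mannitol was lower in odr1-2 than in Col-0 by the test of the difference, -0.17 ± 0.05 (edgeR adjusted p = 0.0289). That call was lost in 9 of 21 alternatives, among which its value ranged between -0.22 and -0.14. It was lost with the DESeq2 test. It was also lost when 1 library was removed, be it any of the 3 of Col-0 in water, replicate 3 of Col-0 in mannitol, replicate 2 or 3 of odr1-2 in water, or replicate 1 or 2 of odr1-2 in mannitol.

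**Figure D3:**
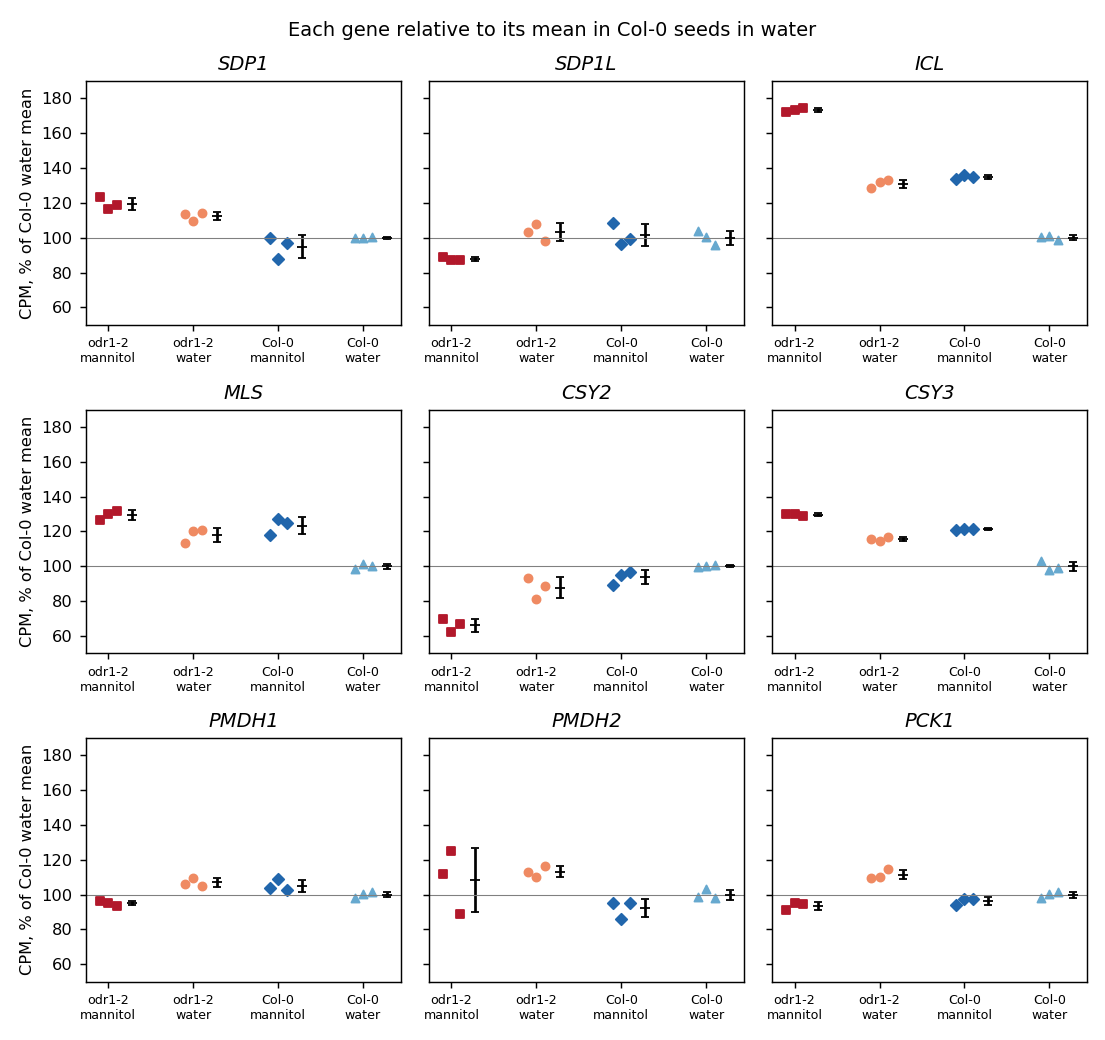
CPM of each gene in every library as a percentage of its mean in Col-0 seeds in water, with the group mean and SD beside the 3 points. In odr1-2 in mannitol ICL stands at 173% and CSY2 at 66.1% of the Col-0 water mean, and PMDH2 is the gene with the widest scatter within a group.

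The first step of the cycle, the condensation of acetyl-CoA with oxaloacetate to citrate, is carried out in peroxisomes by CSY2 and CSY3. CSY3 had 855, 857 and 847 CPM in odr1-2 in mannitol, 761, 755 and 770.4 CPM in odr1-2 in water, 795, 800.0 and 799.8 CPM in Col-0 in mannitol, and 677, 645 and 653 CPM in Col-0 in water. Its 4 groups did not overlap and stood in the same order as those of ICL, with odr1-2 in mannitol first and Col-0 in water last. Mannitol raised CSY3 by 0.16 ± 0.04 in odr1-2 (edgeR adjusted p = 0.000401) and by 0.28 ± 0.04 in Col-0 (adjusted p = 9.06e-09). The rise in odr1-2 was lost in the limma fit on TPM (0.06, adjusted p = 0.190).

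In water CSY3 was higher in odr1-2 by 0.21 ± 0.04 (edgeR adjusted p = 6.96e-06). In mannitol it was higher by 0.10 ± 0.04 (adjusted p = 0.0429), a call lost in 10 of 17 alternatives, with values of 0.03 to 0.10. The replicates whose removal ended it were Col-0 mannitol 1 and 3 and odr1-2 mannitol 1, 2 and 3. An antisense RNA, AT2G09400, is annotated within CSY3 and had 18.4% of the CSY3 counts in odr1-2 in mannitol, 19.3% in odr1-2 in water, 18.4% in Col-0 in mannitol and 18.5% in Col-0 in water. Whether the counting used strand is not stated, so reads of the pair cannot be told apart, and every CSY3 call held with the antisense counts added.

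CSY2 had 29.0, 25.9 and 27.8 CPM in odr1-2 in mannitol, 38.8, 33.8 and 37.0 CPM in odr1-2 in water, 37.2, 39.7 and 40.4 CPM in Col-0 in mannitol, and 41.4, 41.8 and 41.9 CPM in Col-0 in water. Here the odr1-2 mannitol libraries were lowest and the Col-0 water libraries highest. CSY2 fell in mannitol in odr1-2 by 0.40 ± 0.09 on the log2 scale (edgeR adjusted p = 9.01e-05), and gave -0.09 ± 0.08 in Col-0 (adjusted p = 0.384). In mannitol it was lower in odr1-2 than in Col-0, at -0.50 ± 0.09 (adjusted p = 1.59e-06). The value in water, -0.19 ± 0.08, missed the threshold narrowly (adjusted p = 0.0521) and passed in 7 of 16 alternatives, for example without odr1-2 water replicate 1 (-0.23, adjusted p = 0.0394). The mannitol response of CSY2 in odr1-2 minus that in Col-0 was -0.31 ± 0.12, which did not pass (adjusted p = 0.166).

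CSY2 and CSY3 coding sequences were identical at 84.4% of aligned bases. CSY1, which lies beside CSY2 in locus number and is identical to it at 88.2% of aligned bases, reached at most 0.15 TPM in any library. The longest stretch shared between CSY1 and CSY2 was 63 bases, and reads within such stretches may have been split between them or lost.

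The peroxisomal malate dehydrogenases PMDH1 and PMDH2 interconvert malate and oxaloacetate and reoxidise the NADH that beta-oxidation produces. PMDH1 had 693, 687 and 676 CPM in odr1-2 in mannitol, 765, 791 and 758 CPM in odr1-2 in water, 749.7, 784 and 738 CPM in Col-0 in mannitol, and 708, 724 and 730.3 CPM in Col-0 in water. The odr1-2 mannitol libraries were the lowest of the 12, and odr1-2 in water overlapped with Col-0 in mannitol. In odr1-2 mannitol lowered PMDH1 by 0.17 ± 0.04 on the log2 scale (edgeR adjusted p = 0.000269). In Col-0 its value was 0.07 ± 0.04 (adjusted p = 0.143). These responses differed by -0.24 ± 0.06 (adjusted p = 0.00275), a call that held in all 21 alternatives.

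The genotype difference of PMDH1 had opposite signs in the 2 media. In mannitol it was lower in odr1-2, at -0.14 ± 0.04 (edgeR adjusted p = 0.0022). In water it was higher in odr1-2, at 0.10 ± 0.04 (adjusted p = 0.0420), but this call was lost in 9 of 16 alternatives, whose values ran down to 0.05. The replicates whose removal ended it were Col-0 water 1, 2 and 3 and odr1-2 water 1 and 2.

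PMDH2 was the least abundant of the 9 genes, with 91 to 148 counts per library. It had 10.3, 11.5 and 8.17 CPM in odr1-2 in mannitol, 10.4, 10.2 and 10.7 CPM in odr1-2 in water, 8.75, 7.94 and 8.77 CPM in Col-0 in mannitol, and 9.09, 9.51 and 9.04 CPM in Col-0 in water. The 3 odr1-2 mannitol libraries spanned nearly the whole range of the others. No comparison passed for PMDH2. The 95% interval of its mannitol response was -0.37 to 0.24 in odr1-2 and -0.43 to 0.19 in Col-0, and that of odr1-2 over Col-0 was -0.08 to 0.55 in mannitol and -0.12 to 0.48 in water.

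PCK1 encodes the cytosolic enzyme that turns oxaloacetate into phosphoenolpyruvate, the entry to gluconeogenesis. It had 4719.9, 4935 and 4898 CPM in odr1-2 in mannitol, 5675, 5717 and 5944 CPM in odr1-2 in water, 4862, 5055 and 5060.4 CPM in Col-0 in mannitol, and 5092, 5187 and 5261 CPM in Col-0 in water. The odr1-2 water libraries were above all others, and the mannitol groups of the genotypes overlapped. In odr1-2 mannitol lowered PCK1 by 0.25 ± 0.03 on the log2 scale (edgeR adjusted p = 1.35e-09). In Col-0 its value was -0.05 ± 0.03 (adjusted p = 0.195). The responses differed by -0.20 ± 0.05 (adjusted p = 0.00308), and this held in all 21 alternatives.

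In water PCK1 was higher in odr1-2 by 0.16 ± 0.03 (edgeR adjusted p = 6.34e-05). In mannitol its value of -0.04 ± 0.03 did not pass (adjusted p = 0.331), with a 95% interval of -0.11 to 0.02. The calls that PCK1 missed depended on the scaling and, in Col-0, also on the test. With total counts it was called lower in Col-0 in mannitol (-0.09, adjusted p = 0.0141) and lower in odr1-2 than Col-0 in mannitol (-0.10, adjusted p = 0.00946). With limma-voom the mannitol response in Col-0 was called at -0.05 (adjusted p = 0.0448). The paralogue PCK2 had no counts in any library.

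The promoters of ICL, MLS, CSY3 and PCK1 are shown because the first 3 of these genes rose in mannitol in both genotypes, whereas PCK1 fell in odr1-2. The sequences are the 250 bases before the annotated start, read 5′ to 3′ on the minus strand of the RefSeq assembly TAIR10.1, at chr3:7656054-7656303 for ICL, chr5:1034974-1035223 for MLS, chr2:17806074-17806323 for CSY3 and chr4:17806706-17806955 for PCK1. No other annotated gene overlaps these windows. Capitals mark ACGTG on either strand, the core of the abscisic acid response element, and in CSY3 the G-box CACGTG, which holds that core on both strands.
ICL: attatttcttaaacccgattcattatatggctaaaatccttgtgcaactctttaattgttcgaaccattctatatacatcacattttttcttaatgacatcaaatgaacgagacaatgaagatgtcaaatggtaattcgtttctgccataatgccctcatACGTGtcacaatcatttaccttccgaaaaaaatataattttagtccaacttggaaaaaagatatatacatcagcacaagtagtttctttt
MLS: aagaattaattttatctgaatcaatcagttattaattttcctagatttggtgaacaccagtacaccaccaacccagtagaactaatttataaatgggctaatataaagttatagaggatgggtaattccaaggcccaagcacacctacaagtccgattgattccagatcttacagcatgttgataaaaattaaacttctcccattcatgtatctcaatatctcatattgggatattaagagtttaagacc
CSY3: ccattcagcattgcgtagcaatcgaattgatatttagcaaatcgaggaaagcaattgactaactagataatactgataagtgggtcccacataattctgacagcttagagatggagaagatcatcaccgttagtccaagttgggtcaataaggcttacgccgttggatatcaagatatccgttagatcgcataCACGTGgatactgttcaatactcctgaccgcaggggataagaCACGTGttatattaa
PCK1: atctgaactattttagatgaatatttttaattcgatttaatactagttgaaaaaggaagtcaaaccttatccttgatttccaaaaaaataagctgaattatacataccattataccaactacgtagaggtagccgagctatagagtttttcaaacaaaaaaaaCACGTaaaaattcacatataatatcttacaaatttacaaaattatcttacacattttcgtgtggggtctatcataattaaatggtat
ICL holds ACGTG once, beginning 90 bases before its start, and PCK1 holds it once, beginning 87 bases before its start. CSY3 holds the G-box 2 times, beginning 57 and 15 bases before its start, and MLS holds neither motif in this window. Of 27443 promoters of that length, 22.9% hold ACGTG and 6.49% hold CACGTG on either strand. Of the 9 genes, 3 hold the first and 1 the second. Of the other motifs searched on both strands, CATGCA (in 8.43% of promoters) was in none of the 9, TATCCA (13.6%) in CSY3 and PMDH2, and TAACAAA (16.2%) in PMDH1. A match describes the letters and shows no binding.

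Ratios of members within a library do not depend on how libraries are scaled to each other. The TPM ratio of SDP1 to SDP1L averaged 3.04 ± 0.0578 in odr1-2 in mannitol, 2.45 ± 0.167 in odr1-2 in water, 2.10 ± 0.0867 in Col-0 in mannitol and 2.24 ± 0.104 in Col-0 in water (SD, n = 3 each). The odr1-2 mannitol libraries stood above those of odr1-2 in water and of Col-0 in mannitol without overlap. With 3 libraries against 3, a two-sided exact permutation test cannot give a p under 0.10, and both of these comparisons reached 0.10. The remaining comparisons overlapped (exact p = 0.20 each).

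The TPM ratio of ICL to MLS averaged 2.70 ± 0.0419 in odr1-2 in mannitol, 2.24 ± 0.0401 in odr1-2 in water, 2.21 ± 0.0715 in Col-0 in mannitol and 2.02 ± 0.0385 in Col-0 in water (SD, n = 3 each). All 4 pairwise comparisons were without overlap, each with an exact p of 0.10. In these libraries the ratio thus stood higher with mannitol and higher in odr1-2, though 3 libraries against 3 cannot give a p under 0.10.

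CSY2 stood at a small fraction of CSY3. Their TPM ratio averaged 0.0248 ± 0.00143 in odr1-2 in mannitol, 0.0367 ± 0.00238 in odr1-2 in water, 0.0375 ± 0.00149 in Col-0 in mannitol and 0.0486 ± 0.00150 in Col-0 in water (SD, n = 3 each). It was lower in mannitol and lower in odr1-2 without overlap, with an exact p of 0.10 in all 4 comparisons. PMDH1 exceeded PMDH2 by 67.3 ± 11.4 times in odr1-2 in mannitol, 71.3 ± 3.60 times in odr1-2 in water, 86.3 ± 7.78 times in Col-0 in mannitol and 75.4 ± 2.28 times in Col-0 in water. Of these comparisons, mannitol against water in odr1-2 (exact p = 0.60) and odr1-2 against Col-0 in water (exact p = 0.30) overlapped, and the remaining comparisons reached 0.10.

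The ratios of PCK1 to the glyoxylate cycle genes were added after the values had been seen. PCK1 to MLS averaged 0.772 ± 0.00784 in odr1-2 in mannitol, 1.01 ± 0.0257 in odr1-2 in water, 0.835 ± 0.0161 in Col-0 in mannitol and 1.07 ± 0.0123 in Col-0 in water. PCK1 to ICL averaged 0.286 ± 0.00556 in odr1-2 in mannitol, 0.450 ± 0.00692 in odr1-2 in water, 0.378 ± 0.00610 in Col-0 in mannitol and 0.528 ± 0.0144 in Col-0 in water. Both ratios were lower in mannitol than in water and lower in odr1-2 than in Col-0, without overlap and with an exact p of 0.10 in each comparison.

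**Figure D4:**
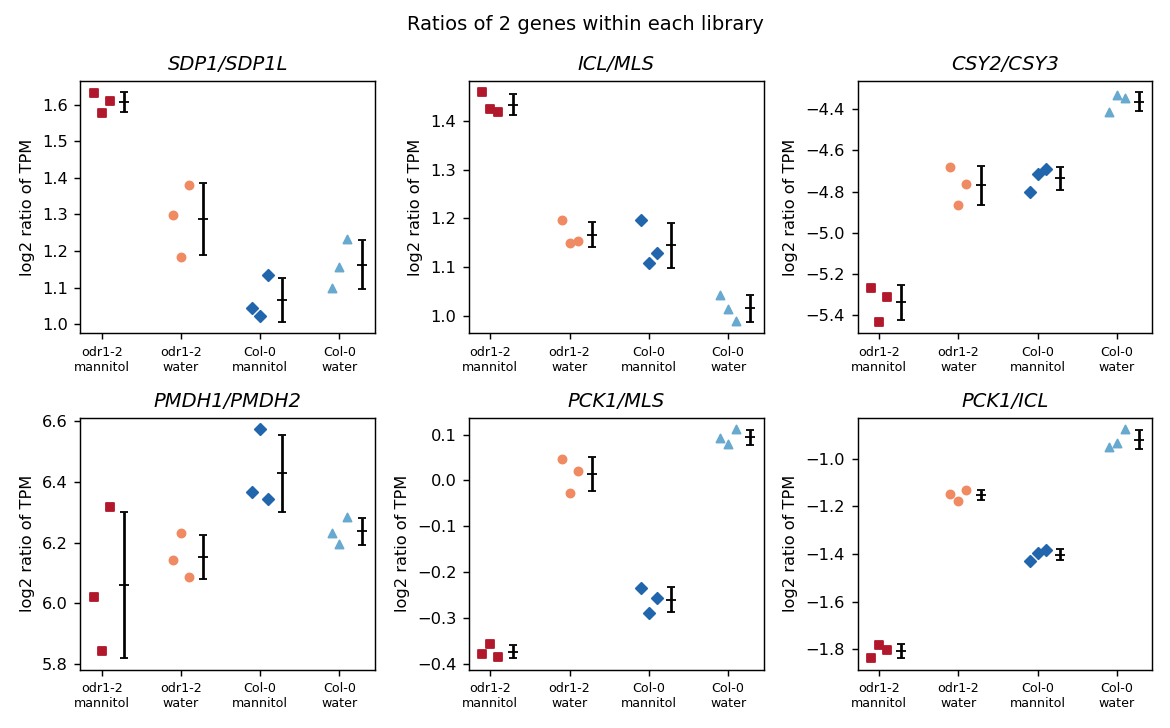
Log2 ratio of the TPM of 2 genes within each library, with 1 point per library and the group mean and SD beside them. The log2 ratio of PCK1 to ICL lies near -1.81 in odr1-2 in mannitol, -1.15 in odr1-2 in water, -1.40 in Col-0 in mannitol and -0.92 in Col-0 in water, while the ratio of PMDH1 to PMDH2 scatters within groups.

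Genes around the 9 were taken from 5 lists of 68 genes, of which 61 were tested. These lists were also chosen with earlier results of these data known. In odr1-2, mannitol raised 12 and lowered 20 of the 61, and in Col-0 it raised 21 and lowered 16. In odr1-2 against Col-0, 23 were higher and 10 lower in water, and 20 were higher and 11 lower in mannitol. Mannitol changed 52.5% of the 61 in odr1-2, against 42.5% of all genes tested, and 60.7% in Col-0, against 42.4% of all genes. Genotype changed 50.8% in mannitol, against 40.1% of all genes, and 54.1% in water, against 39% of all genes. The median response to mannitol was -0.06 in odr1-2 and -0.02 in Col-0, and the median difference between genotypes was 0.08 in mannitol and 0.07 in water, beside medians over all genes of -0.0035, 0.0031, -0.0012 and -0.0018 in the same 4 comparisons.

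Upstream of the cycle, lipolysis and glycerol use was covered by 6 genes. Mannitol lowered 2 and raised none in odr1-2, 33.3% against 42.5% of all genes, and lowered 3 and raised 1 in Col-0, 66.7% against 42.4% of all genes. NHO1, the glycerol kinase gene, had 163 ± 3.26 CPM in odr1-2 in mannitol, 196 ± 6.68 CPM in odr1-2 in water, 94.5 ± 5.57 CPM in Col-0 in mannitol and 136 ± 3.38 CPM in Col-0 in water (SD, n = 3 each). It fell with mannitol, by 0.26 ± 0.05 in odr1-2 and by 0.52 ± 0.05 in Col-0, and was higher in odr1-2 by 0.79 ± 0.05 in mannitol and by 0.53 ± 0.05 in water. GPDHC1, a cytosolic glycerol-3-phosphate dehydrogenase gene, likewise fell by 0.30 ± 0.09 in odr1-2 and by 0.56 ± 0.10 in Col-0. Between genotypes, 4 of the 6 were higher and 1 lower in odr1-2 in mannitol (83.3%, against 40.1% of all genes), and 2 were higher in water (33.3%, against 39%). AT4G24160 was higher in odr1-2 by 0.74 ± 0.13 in mannitol and by 0.77 ± 0.14 in water. The one lower gene, AT3G14360, gave -0.29 ± 0.08 in mannitol and had risen with mannitol in Col-0 by 0.29 ± 0.08.

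Of 7 genes of peroxisomal import and activation, mannitol raised 1 and lowered 2 in odr1-2, and raised 2 and lowered 1 in Col-0. The 42.9% called in each genotype is near the 42.5% and 42.4% of all genes. AAE7, which encodes a peroxisomal enzyme that activates acetate, rose by 1.03 ± 0.13 in odr1-2, with 21.2 ± 0.564 CPM in mannitol and 10.4 ± 1.71 CPM in water. It rose by 1.18 ± 0.14 in Col-0, with 17.1 ± 0.449 CPM in mannitol and 7.51 ± 0.824 CPM in water. PXN, the peroxisomal NAD carrier gene, fell by 0.24 ± 0.05 in odr1-2 and by 0.29 ± 0.05 in Col-0. The long-chain acyl-CoA synthetase gene LACS7 fell in odr1-2 by 0.17 ± 0.05, and the adenine nucleotide carrier gene PNC1 rose in Col-0 by 0.21 ± 0.07. Between genotypes in water 3 were higher and 1 lower in odr1-2 (57.1%, against 39% of all genes), with AAE7 at 0.46 ± 0.15, PNC2 at 0.19 ± 0.07 and PXN at -0.15 ± 0.05. In mannitol AAE7 alone passed (14.3%, against 40.1% of all genes), at 0.31 ± 0.12, a call lost in 8 of 16 alternatives with values of 0.23 to 0.34, among them the removal of any of the 3 Col-0 libraries or of odr1-2 replicate 1 or 3. Single libraries also decided calls in water. The call for AAE7 ended on removing replicate 1 of Col-0 (0.39) or replicate 3 of odr1-2 (0.32), and that for PNC2 on removing replicate 3 of Col-0 (0.16) or replicate 2 of odr1-2 (0.18). The call for PXN ended on removing replicate 1 (-0.13) or 3 (-0.13) of Col-0, or replicate 1 (-0.14) or 3 (-0.14) of odr1-2. The rise of PNC1 in Col-0 ended on removing replicate 3 of its water group (0.15).

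Of 9 genes of the beta-oxidation core, mannitol raised 2 and lowered 2 in odr1-2, and raised 4 and lowered 1 in Col-0. The share called was 44.4% in odr1-2, near the 42.5% of all genes, and 55.6% in Col-0, against 42.4%. The acyl-CoA oxidase gene ACX1 rose by 0.26 ± 0.06 in odr1-2 and by 0.33 ± 0.06 in Col-0. The multifunctional protein gene AIM1 rose by 0.20 ± 0.05 in odr1-2, a call lost in the limma fit on TPM (0.09, adjusted p = 0.231), and by 0.36 ± 0.05 in Col-0. MFP2, the other multifunctional protein gene, fell by 0.18 ± 0.04 in odr1-2. ACX2 fell by 0.16 ± 0.04 in odr1-2 and by 0.24 ± 0.04 in Col-0. In odr1-2 against Col-0, 2 were higher and 2 lower in mannitol (44.4%, against 40.1% of all genes), and 3 were higher and 2 lower in water (55.6%, against 39%). AIM1 was higher by 0.41 ± 0.05 in mannitol and by 0.58 ± 0.05 in water. MFP2 gave -0.36 ± 0.04 in mannitol and -0.13 ± 0.04 in water, and ACX4 gave -0.32 ± 0.05 in mannitol and -0.13 ± 0.05 in water. The thiolase gene PKT3 was higher by 0.10 ± 0.04 in mannitol and by 0.21 ± 0.04 in water. ACX3 was higher in water by 0.20 ± 0.05 and gave 0.11 ± 0.05 in mannitol, which did not pass.

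Cycle steps and isoforms outside the peroxisome were covered by 20 genes, of which 16 were tested. Mannitol raised 3 and lowered 8 in odr1-2, and raised 4 and lowered 7 in Col-0. That is 68.8% called in each genotype, against 42.5% of all genes in odr1-2 and 42.4% in Col-0, where all genes rose and fell in nearly equal shares (21.2% up and 21.3% down in odr1-2, 21% and 21.4% in Col-0). FUM1, the mitochondrial fumarase gene, fell by 0.78 ± 0.05 in odr1-2, with 102 ± 5.6 CPM in mannitol and 174 ± 3.02 CPM in water. It fell by 0.81 ± 0.05 in Col-0, with 132 ± 3.58 CPM in mannitol and 231 ± 5.05 CPM in water. The iron-sulphur subunit genes of succinate dehydrogenase moved apart. SDH2-1 fell by 0.66 ± 0.08 in odr1-2 and by 0.74 ± 0.08 in Col-0, and SDH2-3 rose by 0.80 ± 0.05 in odr1-2 and by 1.35 ± 0.06 in Col-0.

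Between genotypes 3 of the 16 were higher and 7 lower in odr1-2 in mannitol (62.5%, against 40.1% of all genes), and 4 were higher and 5 lower in water (56.2%, against 39%). SDH2-3 was higher in odr1-2 by 0.44 ± 0.05 in mannitol and by 0.99 ± 0.06 in water. The mitochondrial citrate synthase gene ATCS was higher by 0.55 ± 0.06 in mannitol and by 0.44 ± 0.06 in water. The cytosolic malate dehydrogenase gene c-NAD-MDH2 was higher by 0.54 ± 0.10 in mannitol and by 0.89 ± 0.10 in water.

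Downstream of PCK1, 23 of 26 genes of gluconeogenesis and sucrose synthesis were tested. Mannitol raised 6 and lowered 6 in odr1-2, 52.2% against 42.5% of all genes, and raised 10 and lowered 4 in Col-0, 60.9% against 42.4%. In odr1-2 against Col-0, 10 were higher and 1 lower in mannitol (47.8%, against 40.1% of all genes), and 11 were higher and 2 lower in water (56.5%, against 39%). UGP2, a UDP-glucose pyrophosphorylase gene, had 97.0 ± 4.08 CPM in odr1-2 in mannitol, 47.0 ± 0.521 CPM in odr1-2 in water, 41.1 ± 4.65 CPM in Col-0 in mannitol and 14.5 ± 2.13 CPM in Col-0 in water. It rose with mannitol by 1.04 ± 0.08 in odr1-2 and by 1.5 ± 0.09 in Col-0, and was higher in odr1-2 by 1.24 ± 0.08 in mannitol and by 1.69 ± 0.09 in water.

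The sucrose-phosphate phosphatase gene SPP2 rose by 0.69 ± 0.11 in odr1-2 and by 0.97 ± 0.13 in Col-0, and was higher in odr1-2 than in Col-0 by 0.97 ± 0.12 in mannitol and by 1.25 ± 0.13 in water. Of the sucrose-phosphate synthase genes, ATSPS4F rose by 0.72 ± 0.14 in odr1-2 and by 0.61 ± 0.14 in Col-0, and SPS3F rose by 0.47 ± 0.05 in odr1-2 and by 1.22 ± 0.06 in Col-0. The enolase gene LOS2 fell with mannitol, by 0.42 ± 0.04 in odr1-2 and by 0.27 ± 0.04 in Col-0, and gave -0.40 ± 0.04 in mannitol and -0.25 ± 0.04 in water in odr1-2 against Col-0. The phosphoglycerate mutase gene iPGAM1 fell by 0.55 ± 0.14 in odr1-2 and by 1.31 ± 0.12 in Col-0, and was lower in odr1-2 than in Col-0 in water, at -1.05 ± 0.12. All of these values passed the edgeR test over the 18413 genes. The difference between genotypes in iPGAM1 in mannitol, -0.29 ± 0.14, did not pass.

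The mannitol response differed between genotypes for 7 of the 61 genes, 11.5%, against 3.75% of all genes. SPS3F (-0.75 ± 0.08), SDH2-3 (-0.55 ± 0.08), UGP2 (-0.45 ± 0.12), the aconitase gene ACO1 (-0.40 ± 0.07) and MFP2 (-0.23 ± 0.05) had a lower response in odr1-2. iPGAM1 (0.76 ± 0.19) and NHO1 (0.26 ± 0.08) had a higher one. The call for NHO1 was lost in 11 of 21 alternatives with values of 0.21 to 0.31, among them the removal of replicate 2 or 3 of Col-0 in water, 1 or 3 of Col-0 in mannitol, 2 or 3 of odr1-2 in water, or 1 or 2 of odr1-2 in mannitol. That for UGP2 was lost in 4, including the removal of replicate 1 (-0.39) or 3 (-0.40) of Col-0 in water and of replicate 3 of odr1-2 in mannitol (-0.42).

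Likeness of pattern was measured as the root mean square difference of log2 CPM over the 12 libraries, each gene centred on its mean. MLS and CSY3 were the closest pair among the 9, at 0.042, and CSY3 was the closest to MLS of all genes tested. The next pairs were SDP1L with PMDH1 at 0.073 and PMDH1 with PCK1 at 0.076, while ICL was 0.15 from both CSY3 and MLS. Among all genes, ICL was closest to E1 ALPHA (0.046), PEX13 (0.048) and CYP98A3 (0.050). MLS came next to TOM1 and PPI1 (0.050 and 0.051), and CSY3 had PPI1 (0.037) and MMZ3 (0.040) closer than MLS.

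SDP1 was closest to HSD2, AT4G30100 and AT5G63370 (0.046 to 0.057), and SDP1L to AT3G51950, AT1G62330 and AT5G10780 (0.049 to 0.055). CSY2 was closest to AT5G48240, AT5G03195 and AT5G40490 (0.056 to 0.065), and PMDH1 to IAA9, AT5G08500 and EMB3143 (0.050 to 0.052). PCK1 was closest to TMN1, DAD2 and WRKY21 (0.046 to 0.053). PMDH2 had the least close neighbours, AT2G17760, AT1G14230 and AT2G39270 (0.084 to 0.089). All these points share the same libraries, and a small difference is easier to reach for genes that vary little.

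**Figure D5:**
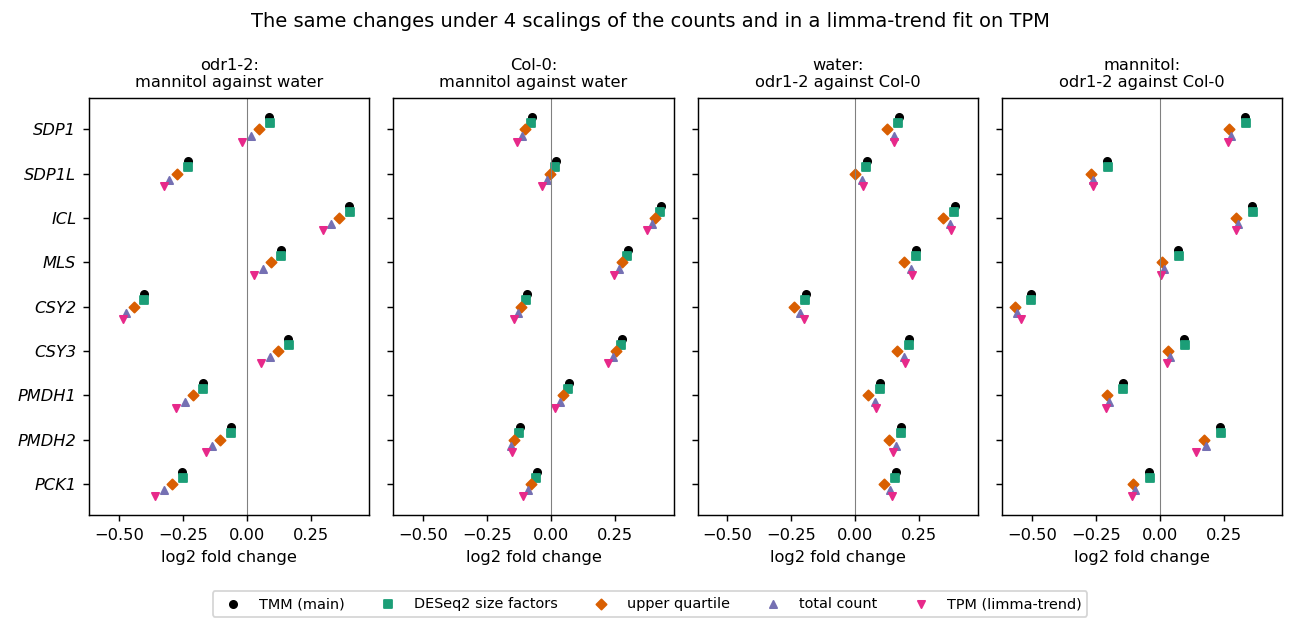
Log2 fold change of each gene in the 4 pairwise comparisons under 4 scalings of the counts and in a limma-trend fit on log2(TPM + 1), one symbol per fit. In odr1-2 mannitol against water, the fit on TPM lies left of the others for every gene, with ICL at 0.30, PCK1 at -0.36 and SDP1 at -0.02.

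In mannitol against water in odr1-2, the median of all genes was -0.097 in the limma-trend fit on TPM and -0.0035 with TMM. That fit changes both the measure and the test. ICL was called higher in all 4 comparisons in each of these 5 fits, and the falls of CSY2, PMDH1, SDP1L and PCK1 in odr1-2 in mannitol also held in each of them.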

How the data were processed

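Libraries were made from poly-T-selected RNA with random hexamer priming, per the labels' protocols. The authors' deposited tables hold raw read counts and TPM for 36795 loci in 12 libraries, 3 biological replicates in each of 4 groups. The submitters' processing notes list HISAT2 2.2.1 and HTSeq 2.0.5, besides fastp 0.23.1, with TAIR10 as genome build; strand setting and multiply mapped reads are not stated. TPM matched counts divided by RefSeq exon length within 1% for 99.97% of 7363 genes. Names and promoters came from RefSeq TAIR10.1 (36632 loci matched by locus tag).

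Counts were tested with edgeR 4.0.16 (R 4.3.3): quasi-likelihood, robust spread, TMM, filterByExpr (minimum count 10, total 15), 12 libraries in 1 fit, 5 two-sided contrasts, Benjamini-Hochberg over 18413 genes. The common biological coefficient of variation was 5.80%. The calling steps were tested on simulated data. Ratios of TPM were compared by exact permutation. Alternatives were other scalings and filters, a replicate block, DESeq2 1.42.0, limma 3.58.1 (voom, and trend on log2 of TPM plus 1), the compared groups alone, and leaving out each library.

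The members and the 5 lists were chosen with earlier results of these data known. Named genes were the 9 members, up to 3 called genes per list and comparison of the largest change with a group mean not under 1 CPM, and the 3 genes closest in pattern to each member.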

Additional observations from a re-analysis of the deposited data

Results flagged for a closer look

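The mannitol response differed between odr1-2 and Col-0 in the edgeR interaction test for 3 of the 9 genes and 7 of the 61 tested genes around them. Of all genes tested, 3.75% passed this test. Among the members, the response in odr1-2 minus that in Col-0 was -0.17 for MLS, -0.24 for PMDH1 and -0.20 for PCK1 on the log2 scale. MLS rose in both genotypes, by less in odr1-2, and its call in the interaction test was lost in 9 of 21 alternatives. PMDH1 and PCK1 fell in odr1-2 and did not pass in Col-0.

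Around them, the difference was -0.75 for SPS3F, -0.55 for SDH2-3, -0.45 for UGP2, -0.40 for ACO1 and -0.23 for MFP2. It was 0.76 for iPGAM1, whose fall was smaller in odr1-2 than in Col-0, and 0.26 for NHO1, which fell in both genotypes. The call for NHO1 was lost in 11 of 21 alternatives and that for UGP2 in 4 of 21. SPS3F, SDH2-3, UGP2 and ACO1 rose in both genotypes, by less in odr1-2.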

How the results depend on the processing

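Over the alternatives, 710 of the values of single members kept their direction and their side of the threshold, 33 lost the call, 17 gained one and 10 changed sign. Of the list genes, only values of named genes that were already called in the edgeR test were tried. They were picked for the largest changes, so they could not gain a call and were unlikely to change sign. Of these values 1008 were kept, 35 lost the call and 0 changed sign. The other values of the list genes were not tried, so their dependence on the processing was not tested. The members called lower in odr1-2 than in Col-0 in water numbered 1, CSY2, with DESeq2 size factors, upper-quartile or total count scaling, the stricter filter, limma-voom and the compared groups alone, and 0 to 1 when a library was left out. The members called lower in mannitol than in water in Col-0 numbered 1, PCK1, with total count scaling, with limma-voom and in a limma-trend fit on log2(TPM + 1), which changes both the measure and the test. The members called higher in mannitol than in water in odr1-2 numbered 1, ICL, in the limma fit on TPM. In that fit 32.84% of all genes called in this comparison were higher, and the median over all genes was -0.097. For CSY2 and PCK1, the share of all genes called lower under the same alternatives is not given here. These counts describe the members alone.

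Each value that changed sign was a small one that missed the threshold before and after. SDP1L in Col-0 in mannitol was -0.0047 with upper-quartile scaling, -0.017 with total counts, -0.036 in the limma fit on TPM and between -0.030 and 0.055 when a library was left out. SDP1L in odr1-2 against Col-0 in water was -0.00096 with upper-quartile scaling, and SDP1 in odr1-2 in mannitol was -0.017 in the limma fit on TPM. The PMDH2 interaction was -0.0065 in the limma fit on TPM and between -0.061 and 0.19 when a library was left out, and PMDH2 in odr1-2 in mannitol was between -0.18 and 0.065 when a library was left out. The log2 ratio of PMDH1 to PMDH2 in odr1-2 in mannitol against water ranged between -0.22 and 0.014 when a library was left out. The cause was not tested.

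Of the genes called in odr1-2 in mannitol against water, 38.23% were higher with total counts and 32.84% in the limma fit on TPM. Of those called between genotypes in mannitol, 40.71% were higher in odr1-2 with upper-quartile scaling and 40.55% in the limma fit on TPM. Deviations of same-numbered libraries correlated by -0.026 to 0.012, so the numbers do not pair the samples. A replicate block changed 1 call, that of MLS between genotypes in mannitol (0.07, adjusted p = 0.0497). The ratios could not pass at 3 libraries against 3.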

Other observations

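Isoforms outside the peroxisome differed widely in level among themselves. The mitochondrial citrate synthase gene ATCS had 81.5 ± 1.22 TPM in odr1-2 in mannitol, 67.5 ± 4.12 TPM in odr1-2 in water, 58.4 ± 4.15 TPM in Col-0 in mannitol and 50.4 ± 3.69 TPM in Col-0 in water (SD, n = 3 each), below CSY3 and above CSY2 in all 4 groups. CSY5, FUM2, FBA5 and PCK2 had no counts in any library, and CSY1, SDH1-2 and SPP1 did not pass the filter on low counts.

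Levels in seeds of odr1-2 in water and of Col-0 in mannitol are set side by side here, as values with no test. ICL averaged 11008 ± 197 CPM in odr1-2 in water and 11321 ± 91.6 CPM in Col-0 in mannitol. MLS averaged 4554 ± 159 CPM in odr1-2 in water and 4756 ± 188 CPM in Col-0 in mannitol. CSY3 averaged 762 ± 7.71 CPM in odr1-2 in water and 798 ± 2.69 CPM in Col-0 in mannitol. PMDH1 averaged 771 ± 17.6 CPM in odr1-2 in water and 757 ± 23.8 CPM in Col-0 in mannitol, whereas PCK1 averaged 5779 ± 145 CPM in odr1-2 in water and 4992 ± 113 CPM in Col-0 in mannitol. In the same order, SDP1 averaged 176 ± 3.86 and 149 ± 10.2 CPM, and SDP1L 63.6 ± 3.11 and 62.5 ± 3.95 CPM. CSY2 averaged 36.5 ± 2.52 and 39.1 ± 1.68 CPM, and PMDH2 10.4 ± 0.30 and 8.49 ± 0.475 CPM. The libraries of these groups overlapped for MLS, PMDH1, SDP1L and CSY2, and not for ICL, CSY3, PCK1, SDP1 and PMDH2. The share of all genes without overlap between these groups is not given here. Whether the members stand out from other genes in this respect was not tested.

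The antisense RNA AT2G09400, within CSY3, gave log2 fold changes of 0.10 ± 0.06 with mannitol in odr1-2 and 0.28 ± 0.06 with mannitol in Col-0. Between genotypes it gave 0.10 ± 0.06 in mannitol and 0.28 ± 0.06 in water. The values in Col-0 and in water passed the edgeR test.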
